A study of Mus musculus with 16 samples.

Results

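The 42 genes described here encode proteins of DNA replication, G2 and mitosis. They were listed by gene symbol and not by a cut on measured values, but with earlier results of these data known. All 42 symbols were found among the 57132 gene IDs of a count table of mouse bone marrow RNA. By role, 11 of them license replication origins or build the helicase, 4 are DNA polymerase subunits or the sliding clamp, 2 are E cyclins and 4 are transcription factors of the cycle. A further 4 are CDK1 and its cyclins, 5 are mitotic or checkpoint kinases, 2 act in the anaphase-promoting complex, 8 act at centromeres, spindle or midbody, and 2 are the chromosome proteins Ki-67 and topoisomerase II alpha.

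Marrow came from Nrf2-/- mice (KO), a global mutant bred from Nrf2+/- parents, and from CB57BL/6 mice (WT), named as in the labels. Each genotype received BMX-001 plus 5-FU, 5-FU alone, BMX-001 alone or PBS, the vehicle, with 2 libraries in each of the 8 groups. 5-FU (5-fluorouracil) inhibits thymidylate synthase, which supplies thymidine for DNA synthesis. Mice received 20 mg/kg of it at the start and again on day 7, and their marrow was collected on day 10. BMX-001 is a redox-active manganese porphyrin, dosed at 0.5 mg/kg every 3 days and, in combination, first at 24 h before 5-FU. The WT mice were males of 8 to 10 weeks, and no age or sex of the KO mice is given in the sources used here. Marrow was isolated in duplicate, and nothing says that duplicates are separate animals, so p-values may measure technical spread only. RNA was taken from whole marrow, so fewer dividing cells and less RNA per cell cannot be told apart.

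A cell that commits to division first loads the MCM helicase at replication origins, then fires them with CDC45 and the GINS complex and copies its DNA with polymerases held by the PCNA clamp. E2F factors drive the replication genes around the G1/S transition, and B-MYB (Mybl2) and FOXM1 drive a later wave for G2 and mitosis, when CDK1 with its cyclins, the Aurora and Polo kinases and the spindle motors act. In bone marrow, most dividing cells are precursors of red cells and granulocytes, with dividing B cell precursors beside them, and 5-FU kills cells in cycle.

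Total counts lay between 32279138 and 39909188 in 15 libraries and at 27305707 in replicate 1 of KO BMX-001. Levels are given as CPM, the count scaled to a common library size with TMM factors, and edgeR's quasi-likelihood test was run on 19152 genes, among them all 42, with a call at an adjusted p under 0.05. Nfe2l2, the gene for NRF2, lay between 6.48 and 16.7 CPM in KO libraries and between 102 and 122 CPM in WT libraries. Of the sex-linked genes, Xist lay between 0.0576 and 0.24 CPM in KO and between 0.0272 and 0.283 CPM in WT libraries. Ddx3y lay between 39.7 and 67.8 CPM in KO and between 41.1 and 57.8 CPM in WT libraries. The KO libraries thus had sex-linked levels like those of the male WT libraries. KO BMX-001 replicate 1 stood apart from every other library. On the first principal component of all genes, with 30.9% of the variance, it lay at 111.9 and the other 15 between -31.0 and 7.6. Results that rest on it are therefore given from all 16 libraries and from the 15 others.

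In these 15 libraries the 42 genes varied little. The highest library held 1.23 times (Mcm3) to 1.51 times (Gins2) the level of the lowest, and the coefficient of variation ran from 5.47% (Mybl2) to 13.1% (Ccne2), with a median of 7.47%. Over the 7047 tested genes at or above the mean level of the lowest member, the median was 8.26%. Per kilobase of exon, Mki67 was highest at 364 CPM per kb, followed by Pcna at 145, Top2a at 124, Ccna2 at 106 and Ccnb2 at 101 CPM per kb. Gins2 was lowest at 5.16 CPM per kb, but 67.3% of its exon bases overlap Gse1 on the opposite strand. Whether strand was used in counting is not given in the sources used here, so reads of Gins2 and Gse1 cannot be told apart. The same limit touches Ube2c (22.8% shared with Tnnc2), Ccne2 (17.4% shared with Ints8), Ccna2 (12.5% shared with Exosc9), E2f8 (11.2%) and Prc1 (11.1%).

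**Figure D1:**
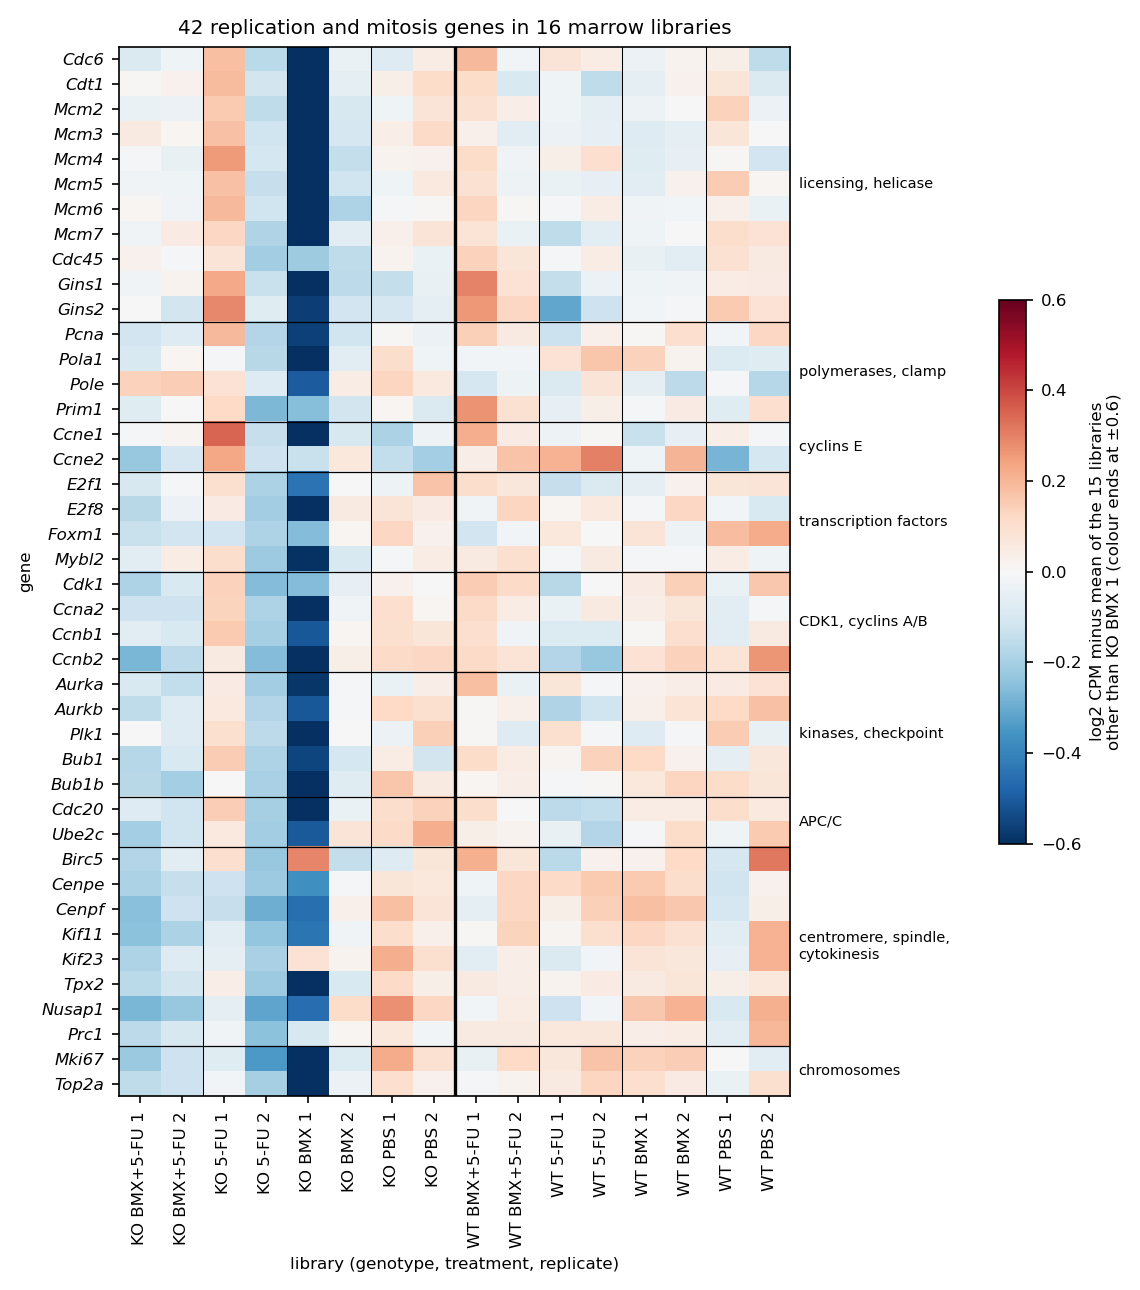
Log2 CPM of each of the 42 genes (rows, by role) in each of the 16 libraries (columns), minus the gene's mean over the 15 libraries other than KO BMX-001 replicate 1. The dark blue column is KO BMX-001 replicate 1, lowest for 37 of 42 genes, and KO 5-FU replicate 2, lowest of the other 15 for 30 genes, is pale blue throughout.

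Promoters were searched for the sequence motifs through which these genes are known to be timed. Of the 42 genes, 33 had a RefSeq promoter (GRCm38.p6), and 35 promoters were read from 250 bases before to 20 after the start. The E2F motif was searched as the spelling TTGGCGC, the spelling TTGCCGC, the spelling TTCGCGC and the spelling TTCCCGC. The cell cycle genes homology region (CHR), a site of late-acting complexes, was searched as TTTGAA and also TTCGAA, and the NF-Y box as CCAAT, all on both strands. The E2F motif was found in 31.4% of the members' promoters, against 8.52% of all 32851 promoters in the table, the CHR in 48.6% against 18.0%, and CCAAT in 80.0% against 35.4%. A reversed TTGGCGC ends in CCAA, so it can share letters with CCAAT. Among the 12 promoters of replication genes, 7 held the E2F motif and 3 the CHR. Among the 19 promoters of mitosis genes, 3 held the E2F motif and 13 the CHR. A match is a description of letters and not evidence of binding.

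The promoters of 6 genes are shown because results below turn on them or on their role, each 5′ to 3′ with E2F and CHR matches in capitals. They are a pair of MCM genes with the E2F motif, Cdk1 with both motifs, Ccnb2 and Kif23 with the CHR, and Nusap1 with neither. Mcm5 lies at chr8:75109259-75109528 (plus strand), Mcm6 at chr1:128359686-128359955 (minus strand) and Cdk1 at chr10:69352893-69353162 (minus strand). Ccnb2 lies at chr9:70421535-70421804 (minus strand), Kif23 at chr9:61946780-61947049 (minus strand) and Nusap1 at chr2:119618048-119618317 (plus strand).
Mcm5: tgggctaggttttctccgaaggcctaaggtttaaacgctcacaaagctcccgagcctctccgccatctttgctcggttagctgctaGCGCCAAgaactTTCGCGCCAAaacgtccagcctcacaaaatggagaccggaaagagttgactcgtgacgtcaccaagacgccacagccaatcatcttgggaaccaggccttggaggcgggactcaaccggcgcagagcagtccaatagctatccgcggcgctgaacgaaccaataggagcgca
Mcm6: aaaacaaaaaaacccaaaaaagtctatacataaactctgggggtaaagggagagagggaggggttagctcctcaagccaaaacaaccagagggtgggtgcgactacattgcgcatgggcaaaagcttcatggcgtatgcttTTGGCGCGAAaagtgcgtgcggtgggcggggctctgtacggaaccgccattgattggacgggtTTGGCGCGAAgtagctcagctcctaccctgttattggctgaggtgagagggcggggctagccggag
Cdk1: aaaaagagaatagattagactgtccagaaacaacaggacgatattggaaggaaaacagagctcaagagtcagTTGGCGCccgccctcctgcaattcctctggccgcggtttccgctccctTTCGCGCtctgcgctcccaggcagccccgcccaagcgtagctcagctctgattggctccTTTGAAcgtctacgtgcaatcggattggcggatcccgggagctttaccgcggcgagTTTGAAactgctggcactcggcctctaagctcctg
Ccnb2: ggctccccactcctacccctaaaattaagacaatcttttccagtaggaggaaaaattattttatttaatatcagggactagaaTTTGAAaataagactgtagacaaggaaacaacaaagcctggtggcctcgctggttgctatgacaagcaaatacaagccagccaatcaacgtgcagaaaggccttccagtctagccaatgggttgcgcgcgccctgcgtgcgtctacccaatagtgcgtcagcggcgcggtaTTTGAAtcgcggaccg
Kif23: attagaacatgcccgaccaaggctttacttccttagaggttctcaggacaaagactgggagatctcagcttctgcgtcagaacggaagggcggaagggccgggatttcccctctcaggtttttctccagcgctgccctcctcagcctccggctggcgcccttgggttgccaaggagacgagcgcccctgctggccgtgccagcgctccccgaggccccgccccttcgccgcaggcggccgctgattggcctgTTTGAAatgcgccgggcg
Nusap1: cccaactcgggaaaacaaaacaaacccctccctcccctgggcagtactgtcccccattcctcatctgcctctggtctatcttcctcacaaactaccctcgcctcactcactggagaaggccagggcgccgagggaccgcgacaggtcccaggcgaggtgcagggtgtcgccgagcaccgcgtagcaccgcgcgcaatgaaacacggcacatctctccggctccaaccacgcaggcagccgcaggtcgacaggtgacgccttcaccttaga
In Cdk1 a CHR begins 15 bases before the transcript start, and those nearest the start in Ccnb2 and Kif23 begin just inside the transcript.

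The library that stood apart was lowest of all 16 for 37 of the 42 genes (88.1%), whereas it was lowest for 50.2% of the 7047 tested genes at or above the level of the lowest member. The median ratio of KO BMX-001 replicate 1 to replicate 2 was 0.675 over the members and 0.871 over those 7047 genes. The 6 MCM subunits, which form the ring of the replicative helicase, were low together, with ratios of 0.365 (Mcm2) to 0.478 (Mcm7). Only 1 other member had a ratio under 0.5, Plk1, the Polo kinase of mitotic entry, at 0.378. Other replication genes were less low: Cdc6, which loads the MCM ring, had a ratio of 0.614, Pcna 0.739, the primase subunit Prim1 0.906 and Cdc45 0.957.

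In the same library, genes of the late cell cycle were uneven. Birc5 (survivin of the chromosomal passenger complex) had 184 CPM in replicate 1 and 136 CPM in replicate 2, and Kif23, a motor of the midbody, 158 and 151 CPM. Mki67, a protein that coats mitotic chromosomes and marks cycling cells, had 2232 and 3531 CPM, and Top2a, which untangles DNA, 632 and 1116 CPM. For 30 of the 42 genes these 2 replicates differed by a larger factor than any pair of libraries among the other 15. The same count was not made over all genes, so it cannot be read as a trait of the members.

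Other transcripts moved with it. The summed level of 8 granulocyte precursor markers was 707 CPM in KO BMX-001 replicate 1 and 2230 to 3533 CPM in the other 15, with Mpo (myeloperoxidase) at 284 against 1385 to 2272 CPM. The sum of 7 progenitor markers was 106 against 169 to 233 CPM, that of 6 monocyte markers 615 against 992 to 1776 CPM, and that of 10 erythroid markers 70510 CPM, inside the range of the others (42230 to 77835). The nuclear transcript Malat1 stood at 12210 against 2549 to 5345 CPM. No marker of these 4 lists was at 0 in any library, and their part in the low members was not tested.

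**Figure D2:**
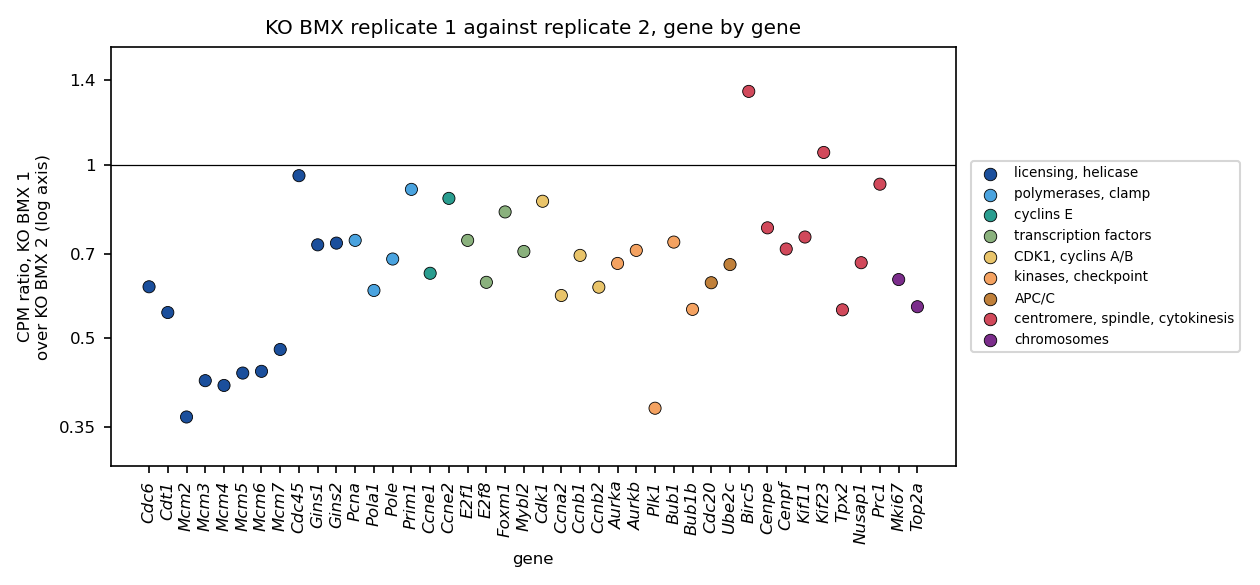
Ratio of the CPM in KO BMX-001 replicate 1 to that in replicate 2 for each of the 42 genes (log axis), coloured by role. The 6 MCM genes and Plk1 lie under 0.5, and Birc5 (1.34) and Kif23 (1.05) lie above 1.

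The first question is whether marrow of mice given 5-FU, 3 days after the second dose, held less or more of these transcripts than marrow of mice not given it. Over all groups and 16 libraries, none of the 42 was called in edgeR, while 2.95% of all tested genes were. At an unadjusted p under 0.05 there were 5 members, against 18.1% of all genes. The members' median log2 fold change was 0.04 beside 0.01 for all genes. Kif23 had the smallest p (log2 fold change -0.17 ± 0.05 SE, adjusted p = 0.114), followed by Foxm1 (-0.12 ± 0.05, adjusted p = 0.226) and Nusap1 (-0.20 ± 0.08, adjusted p = 0.227).

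Without KO BMX-001 replicate 1, 5 of the 42 members fell after 5-FU and none rose, while 8.16% of 19694 tested genes were called, 5.81% as lower and 2.35% as higher. At an unadjusted p under 0.05 there were 10 members, against 23.1% of all genes. All 5 act in or drive G2 and mitosis: Nusap1, a microtubule-bundling spindle protein, Ccnb2, a B cyclin partner of CDK1, the transcription factor Foxm1, Aurkb, the kinase of the chromosomal passenger complex, and Kif23. Nusap1 had a log2 fold change of -0.26 ± 0.05 (SE, adjusted p = 0.00612), with 254 ± 23.3 CPM in the 8 libraries given 5-FU and 305 ± 23.7 CPM in the 7 not given it (SD). Ccnb2 had -0.21 ± 0.05 (adjusted p = 0.0136) and Foxm1 -0.16 ± 0.04 (adjusted p = 0.0204). For Kif23 it was -0.16 ± 0.05 (adjusted p = 0.044) and for Aurkb -0.15 ± 0.04 (adjusted p = 0.04).

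Among the 15 replication genes no member was called, and their log2 fold changes lay between -0.04 (Mcm7) and 0.10 (Mcm4) with a median of 0.03. Among the 21 genes of mitosis 20 were below 0 (45.4% of all genes were), with a median of -0.08, and 4 were called. The median over all genes was 0.02. These values depend on scaling. With library totals alone in place of TMM, the median of all genes shifted to 0.158 and that of the members to 0.10. The 5 genes then lost their calls, with log2 fold changes of -0.13 for Nusap1 (adjusted p = 0.073), -0.08 for Ccnb2, -0.03 for Kif23, -0.02 for Foxm1 and -0.01 for Aurkb. There 16 other members, 12 of them replication genes, were called higher, as were 23.7% of all genes. Nusap1 and Ccnb2 were called in each of the 14 fits that left out a further library. Foxm1 was called in 10 of these 14 fits, Kif23 in 3 and Aurkb in 2.

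**Figure D3:**
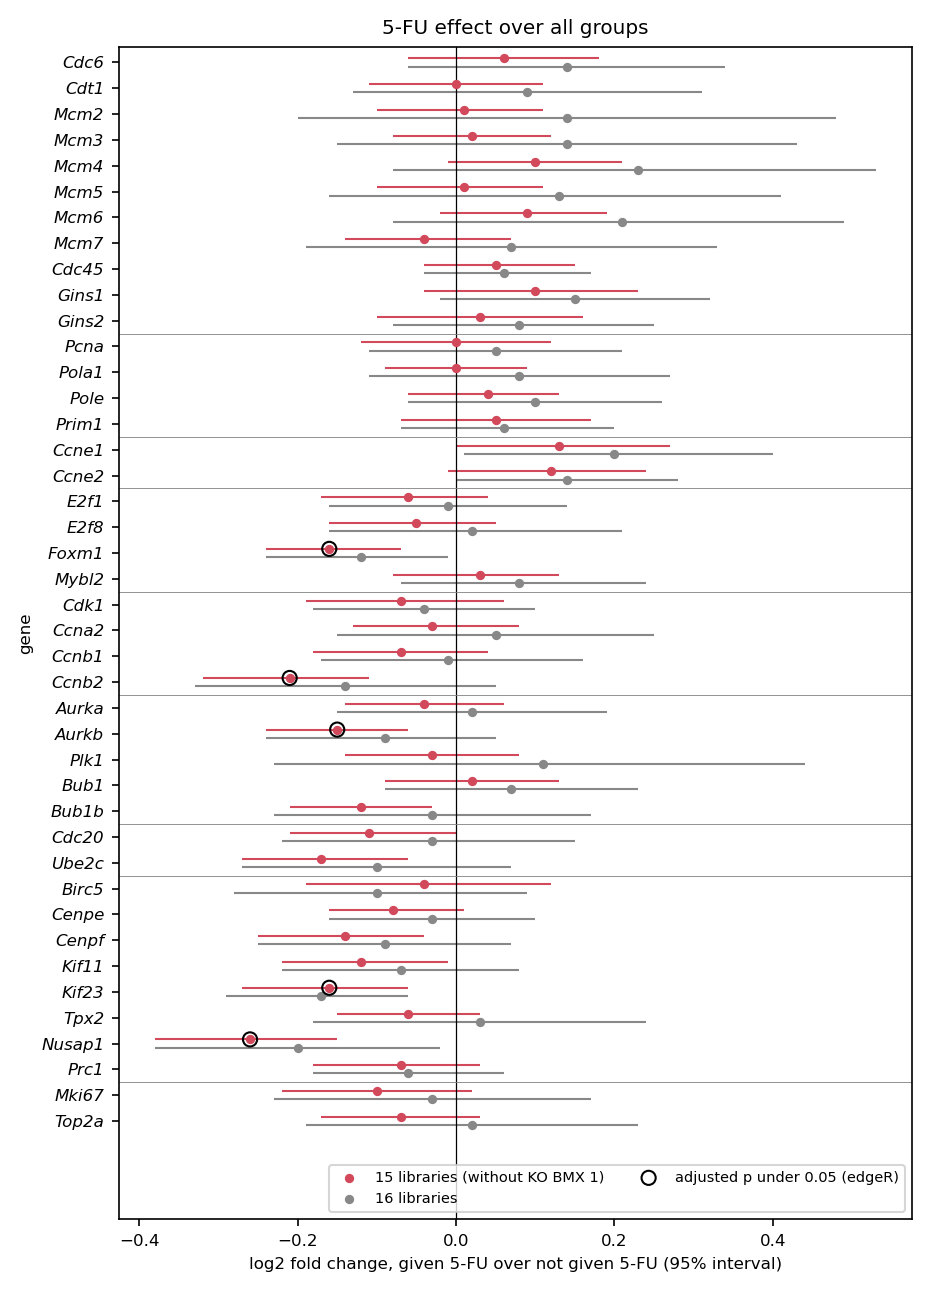
Log2 fold change of libraries given 5-FU over those not given it, with its 95% interval, for each of the 42 genes from 15 libraries (red) and 16 libraries (grey). Circles mark adjusted p under 0.05 in edgeR: 5 genes of the later cycle in the 15-library fit and none in the 16-library fit, and with library totals alone none of the 5 kept its call.

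Nusap1 had 228 and 235 CPM in KO BMX-001 plus 5-FU, 265 and 221 in KO 5-FU, 201 and 297 in KO BMX-001 and 333 and 300 in KO PBS, against 272 and 284 in WT BMX-001 plus 5-FU, 253 and 272 in WT 5-FU, 308 and 318 in WT BMX-001 and 259 and 319 in WT PBS. The 8 libraries given 5-FU lay between 221 and 284 CPM and overlapped the 7 others, of which WT PBS replicate 1 was lowest at 259 CPM. Ccnb2 had 130 and 141 CPM in KO BMX-001 plus 5-FU, 163 and 131 in KO 5-FU, 98.8 and 161 in KO BMX-001 and 170 and 171 in KO PBS, against 170 and 166 in WT BMX-001 plus 5-FU, 139 and 134 in WT 5-FU, 167 and 173 in WT BMX-001 and 166 and 189 in WT PBS. The WT libraries given BMX-001 plus 5-FU lay near WT PBS replicate 1 and the WT BMX-001 libraries, and the low values were those of WT 5-FU and of 3 of the 4 KO libraries given 5-FU. Foxm1 had 98.6 and 100 CPM in KO BMX-001 plus 5-FU, 99.8 and 95 in KO 5-FU, 90.2 and 109 in KO BMX-001 and 118 and 110 in KO PBS, against 99.7 and 107 in WT BMX-001 plus 5-FU, 113 and 108 in WT 5-FU, 114 and 106 in WT BMX-001 and 123 and 126 in WT PBS. The WT PBS libraries were the highest for Foxm1, and the 4 KO libraries given 5-FU, at 100 CPM or less, were below the KO libraries of the 15 that were not given it.

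Kif23 had 131 and 141 CPM in KO BMX-001 plus 5-FU, 143 and 130 in KO 5-FU, 158 and 151 in KO BMX-001 and 173 and 159 in KO PBS, against 142 and 153 in WT BMX-001 plus 5-FU, 140 and 147 in WT 5-FU, 157 and 156 in WT BMX-001 and 144 and 172 in WT PBS. All 4 KO libraries given 5-FU were below all 4 KO libraries not given it, the deviating library included, while the WT groups overlapped. Aurkb had 98.5 and 104 CPM in KO BMX-001 plus 5-FU, 114 and 97 in KO 5-FU, 77.1 and 109 in KO BMX-001 and 119 and 117 in KO PBS, against 110 and 112 in WT BMX-001 plus 5-FU, 96.9 and 101 in WT 5-FU, 112 and 116 in WT BMX-001 and 119 and 124 in WT PBS. The WT 5-FU libraries and 3 of the 4 KO libraries given 5-FU were lowest for Aurkb among the 15.

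Within KO marrow, with both 5-FU groups pooled against both others, none of the 42 was called from 16 libraries, where 1.90% of all genes were, and 3 had an unadjusted p under 0.05 (17.2% of all genes). These were Kif23 (log2 fold change -0.23 ± 0.08, adjusted p = 0.161), Ccne1 (0.31 ± 0.13, adjusted p = 0.254) and Gins1, a subunit of the GINS complex (0.26 ± 0.11, adjusted p = 0.26). From 15 libraries, where 3.49% of all genes were called and 3.11% as lower, 10 members had an unadjusted p under 0.05 (15.7% of all genes) and 2 fell: Nusap1 (-0.37 ± 0.08, adjusted p = 0.0139) and Cenpf, a kinetochore protein (-0.28 ± 0.07, adjusted p = 0.0398). Cenpf had 335 ± 19.2 CPM in KO libraries given 5-FU (SD, n = 4) and 411 ± 22.2 CPM in those not given it (n = 3). All 21 mitosis genes were at or below 0 in that fit, against 44.0% of all genes, with a median of -0.13, and the 15 replication genes had a median of 0.03. Both calls were lost without KO PBS replicate 1 and without KO BMX-001 plus 5-FU replicate 1. The call of Cenpf was also lost without KO 5-FU replicate 2, without KO BMX-001 plus 5-FU replicate 2 and without any 1 of the WT 5-FU or WT BMX-001 libraries. With library totals alone neither was called, and 7 members were called higher, with 13.1% of all genes called in either direction and the median of all genes at 0.194.

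Within WT marrow the same pooled comparison called no member from 16 libraries (0.0574% of all genes) or from 15 (1.94%). At an unadjusted p under 0.05 there was 1 member from 16 libraries (9.54% of all genes) and 5 from 15 (17.2%). The 3 of smallest p from 16 libraries were Ccne2 (0.23 ± 0.09, adjusted p = 0.453), Foxm1 (-0.13 ± 0.07, adjusted p = 0.6) and Aurkb (-0.16 ± 0.10, adjusted p = 0.626). Cenpf had a log2 fold change of -0.01 (95% interval -0.15 to 0.13) in WT from 15 libraries, with 401 ± 25.2 CPM given 5-FU and 405 ± 35.4 CPM not (SD, n = 4 each).

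The difference between the genotypes in the response to 5-FU was tested as an interaction. It called no member and 0.0% of all genes in either fit. From 16 libraries the smallest p belonged to Gins2 (0.29 ± 0.15, adjusted p = 0.689), Gins1 (0.22 ± 0.16, adjusted p = 0.706) and Cenpe, a kinetochore motor (-0.17 ± 0.12, adjusted p = 0.706), and no member reached an unadjusted p of 0.05 (6.79% of all genes did). From 15 libraries 3 did, against 6.98% of all genes: Cenpe (-0.25 ± 0.08, adjusted p = 0.548), Cenpf (-0.27 ± 0.10, adjusted p = 0.583) and Mki67 (-0.25 ± 0.12, adjusted p = 0.708). The 95% intervals of the members from 15 libraries lay between -0.49 and 0.45, and the absence of a call does not show that the genotypes responded alike.

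Cenpf had 323 and 353 CPM in KO BMX-001 plus 5-FU, 349 and 314 in KO 5-FU, 281 and 393 in KO BMX-001 and 436 and 405 in KO PBS, against 369 and 419 in WT BMX-001 plus 5-FU, 394 and 424 in WT 5-FU, 435 and 430 in WT BMX-001 and 359 and 394 in WT PBS. The 4 KO libraries given 5-FU were below the 3 KO libraries other than replicate 1 of BMX-001. Mki67 had 3197 and 3432 CPM in KO BMX-001 plus 5-FU, 3550 and 2943 in KO 5-FU, 2232 and 3531 in KO BMX-001 and 4360 and 3981 in KO PBS, against 3621 and 4056 in WT BMX-001 plus 5-FU, 3910 and 4202 in WT 5-FU, 4111 and 4140 in WT BMX-001 and 3727 and 3568 in WT PBS. The 4 KO libraries given 5-FU all lay under the 8 WT libraries, with 3550 CPM in the highest of the 4 and 3568 CPM in the lowest WT library, and KO PBS replicate 1 was the highest of all.

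**Figure D4:**
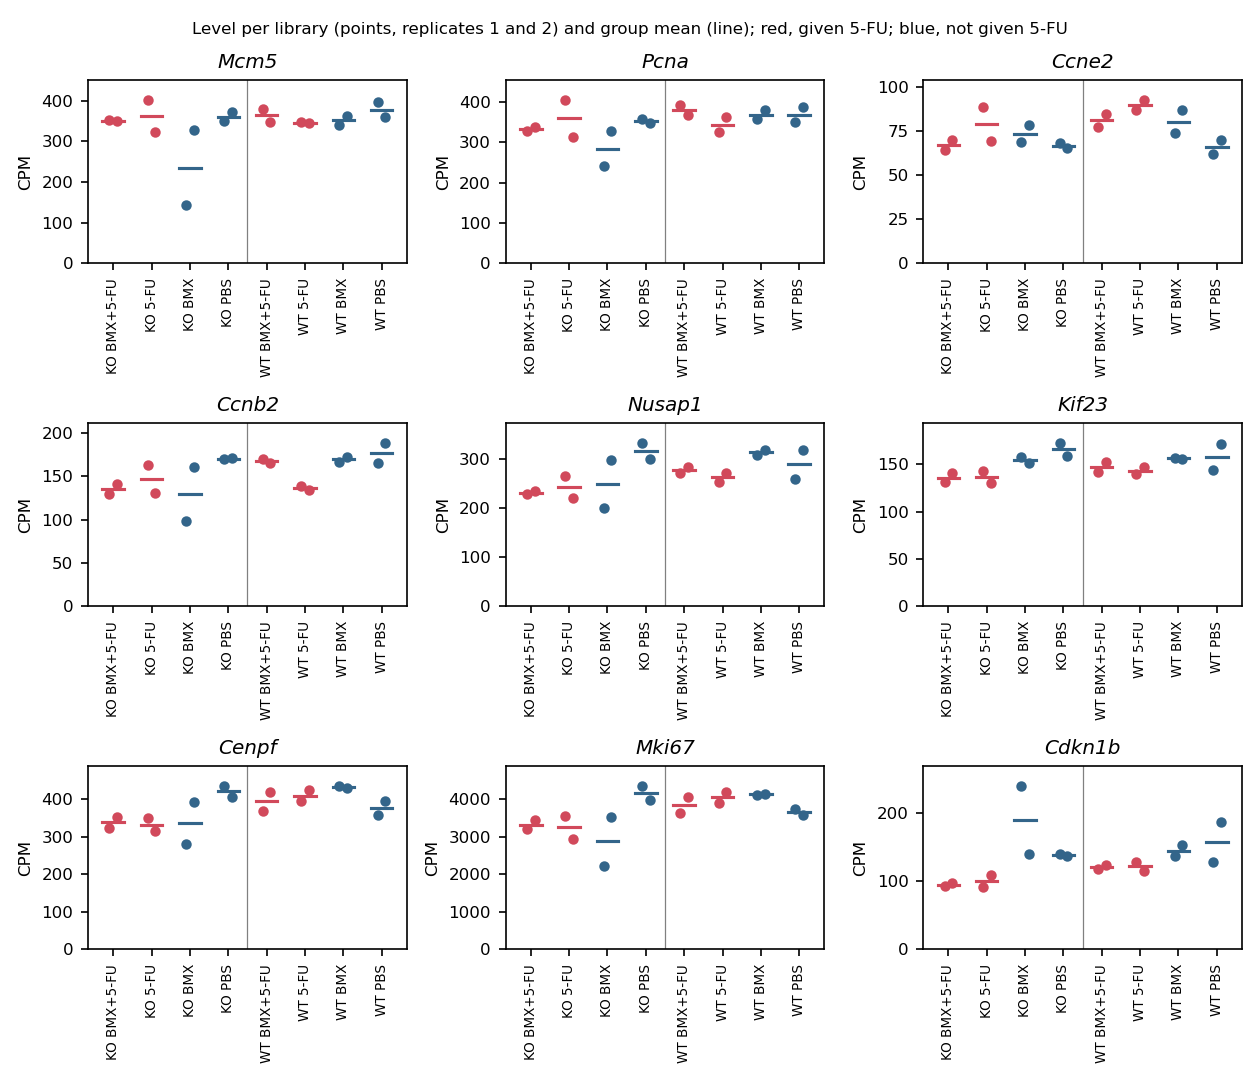
CPM in each library (points) and group mean (lines) for 8 members and for Cdkn1b, with groups given 5-FU in red and those not given it in blue, and KO left of WT in each panel. In KO marrow, Nusap1, Kif23 and Cenpf were lower in all 4 libraries given 5-FU than in KO PBS and in KO BMX-001 replicate 2, while Mcm5 and Pcna overlapped.

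Against PBS alone, WT 5-FU marrow had no called member from 16 libraries (0.00522% of all genes) and 3 at an unadjusted p under 0.05 (14.4% of all genes). These were Ccne2 (0.45 ± 0.13, adjusted p = 0.169), Gins2 (-0.34 ± 0.15, adjusted p = 0.342) and Aurkb (-0.29 ± 0.14, adjusted p = 0.345). From 15 libraries 9 members had an unadjusted p under 0.05 (23.9% of all genes). There 6.87% of all genes were called, 3.13% as higher and 3.74% as lower, and of the members Ccne2 rose (0.44 ± 0.11, adjusted p = 0.0273) and Ccnb2 (-0.37 ± 0.10, adjusted p = 0.0288) and Aurkb (-0.29 ± 0.08, adjusted p = 0.0372) fell. With library totals alone, which put the median of all genes at 0.117 and called 7.7% of them, Ccne2 kept its call, Ccnb2 and Aurkb lost theirs, and Cenpe and Pola1 were called higher. All 3 calls were lost without WT PBS replicate 2, WT 5-FU replicate 1 or WT 5-FU replicate 2, Ccne2 also without WT PBS replicate 1, and Aurkb also without either WT BMX-001 library. Ccne2, an E cyclin that activates CDK2 at the start of S phase, had 64.1 and 70 CPM in KO BMX-001 plus 5-FU, 88.3 and 69 in KO 5-FU, 68.5 and 78.4 in KO BMX-001 and 67.9 and 65.3 in KO PBS, against 77.2 and 84.7 in WT BMX-001 plus 5-FU, 86.7 and 92.6 in WT 5-FU, 73.8 and 86.5 in WT BMX-001 and 61.9 and 69.8 in WT PBS. WT 5-FU had the highest group mean, and every WT group lay above WT PBS. Ints8, which shares exon bases with Ccne2, had a log2 fold change of 0.36 ± 0.09 in the 16-library comparison (adjusted p = 0.114) and rose by 0.36 from 15 libraries (adjusted p = 0.0111).

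KO 5-FU marrow against KO PBS called none of the 42 in either fit, while 0.454% of all genes were called from 16 libraries and 2.82% from 15. At an unadjusted p under 0.05 there were 4 members from 16 libraries (9.42% of all genes) and 11 from 15 (16.1%). The smallest p from 16 libraries belonged to Kif23 (-0.28 ± 0.11, adjusted p = 0.406), Cenpf (-0.34 ± 0.15, adjusted p = 0.478) and Nusap1 (-0.38 ± 0.17, adjusted p = 0.485). In the 15-library fit Cenpf (adjusted p = 0.0549) and Nusap1 (adjusted p = 0.0572) missed the threshold narrowly. The 2 KO 5-FU libraries differed from each other across the members: replicate 2 was lowest of the 15 libraries for 30 of 42 genes, against 10.4% of the 7047 genes. Replicate 1 was the highest of the 15 for 15 of 42, a count that was not made over all genes and so cannot be read as a trait of the members. Without replicate 1, the members' median in this comparison was -0.25, and without replicate 2 it was 0.07.

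Replication genes showed that spread. Cdc6 had 157 and 164 CPM in KO BMX-001 plus 5-FU, 189 and 149 in KO 5-FU, 99.5 and 162 in KO BMX-001 and 158 and 172 in KO PBS, against 191 and 165 in WT BMX-001 plus 5-FU, 176 and 172 in WT 5-FU, 163 and 169 in WT BMX-001 and 171 and 150 in WT PBS. Mcm5 had 352 and 350 CPM in KO BMX-001 plus 5-FU, 403 and 324 in KO 5-FU, 143 and 328 in KO BMX-001 and 351 and 372 in KO PBS, against 380 and 349 in WT BMX-001 plus 5-FU, 347 and 345 in WT 5-FU, 341 and 363 in WT BMX-001 and 396 and 360 in WT PBS. Pcna had 328 and 337 CPM in KO BMX-001 plus 5-FU, 406 and 314 in KO 5-FU, 241 and 327 in KO BMX-001 and 357 and 347 in KO PBS, against 392 and 369 in WT BMX-001 plus 5-FU, 325 and 363 in WT 5-FU, 357 and 381 in WT BMX-001 and 351 and 387 in WT PBS. In all 3 genes KO 5-FU replicate 1 was highest or second highest and KO 5-FU replicate 2 lowest of the 15. Apart from the deviating library, libraries given 5-FU overlapped those not given it within each genotype. Some single groups did not overlap, such as WT PBS (396 and 360 CPM) and WT 5-FU (347 and 345 CPM) for Mcm5.

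For regulators of S phase entry too, libraries given 5-FU overlapped those not given it within each genotype, but not all single groups overlapped. Ccne1, the other E cyclin, had 73.2 and 74.4 CPM in KO BMX-001 plus 5-FU, 93.7 and 67 in KO 5-FU, 44.7 and 68.9 in KO BMX-001 and 64.5 and 72 in KO PBS, against 85.7 and 76.2 in WT BMX-001 plus 5-FU, 72.1 and 74.1 in WT 5-FU, 67.2 and 71.2 in WT BMX-001 and 75.8 and 73.4 in WT PBS. E2f1, an activator of replication genes, had 42.7 and 45.3 CPM in KO BMX-001 plus 5-FU, 48.7 and 40 in KO 5-FU, 33.6 and 45.5 in KO BMX-001 and 44.6 and 51.3 in KO PBS, against 49 and 47.8 in WT BMX-001 plus 5-FU, 41.4 and 42.9 in WT 5-FU, 43.9 and 46.4 in WT BMX-001 and 48 and 48.1 in WT PBS. For E2f1 the WT 5-FU libraries lay below all other WT libraries. For Ccne1 the WT BMX-001 plus 5-FU libraries lay above all other WT libraries. Neither gene was called in any of the 12 comparisons from 16 or from 15 libraries. For Ccne1 the replicates of KO 5-FU spanned 67.0 to 93.7 CPM, a range that held all of the other 13 of the 15 libraries except KO PBS replicate 1.

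Cdk1, Ccnb1, Plk1 and Top2a also overlapped between libraries given 5-FU and those not given it within each genotype. Some single groups did not overlap, such as KO BMX-001 plus 5-FU (152 and 162 CPM) and KO PBS (176 and 173 CPM) for Cdk1. Cdk1, the kinase that starts mitosis, had 152 and 162 CPM in KO BMX-001 plus 5-FU, 190 and 144 in KO 5-FU, 144 and 167 in KO BMX-001 and 176 and 173 in KO PBS, against 192 and 187 in WT BMX-001 plus 5-FU, 154 and 173 in WT 5-FU, 179 and 191 in WT BMX-001 and 168 and 193 in WT PBS. Its partner cyclin Ccnb1 had 165 and 162 CPM in KO BMX-001 plus 5-FU, 192 and 150 in KO 5-FU, 121 and 174 in KO BMX-001 and 184 and 181 in KO PBS, against 185 and 170 in WT BMX-001 plus 5-FU, 163 and 163 in WT 5-FU, 173 and 185 in WT BMX-001 and 165 and 179 in WT PBS. Plk1 had 139 and 132 CPM in KO BMX-001 plus 5-FU, 149 and 125 in KO 5-FU, 52.4 and 139 in KO BMX-001 and 136 and 154 in KO PBS, against 140 and 132 in WT BMX-001 plus 5-FU, 149 and 138 in WT 5-FU, 132 and 138 in WT BMX-001 and 155 and 135 in WT PBS. For Plk1, 15 libraries lay between 125 and 155 CPM and KO BMX-001 replicate 1 at 52.4 CPM. Top2a had 1031 and 1049 CPM in KO BMX-001 plus 5-FU, 1131 and 998 in KO 5-FU, 632 and 1116 in KO BMX-001 and 1228 and 1164 in KO PBS, against 1135 and 1161 in WT BMX-001 plus 5-FU, 1189 and 1253 in WT 5-FU, 1229 and 1185 in WT BMX-001 and 1115 and 1224 in WT PBS, and the 15 other libraries lay between 998 and 1253 CPM.

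The remaining members stayed within narrow ranges in the 15 libraries. Cdt1, the licensing partner of CDC6, lay between 84.3 and 107 CPM, and the other MCM genes between 256 and 508 CPM. Cdc45 lay between 55.3 and 70.3 CPM, Gins1 between 18.0 and 24.7 CPM, Gins2 between 17.3 and 26.2 CPM and Prim1 between 48.4 and 70.4 CPM. Pola1 and Pole, catalytic subunits of the initiating and leading-strand polymerases, lay between 136 and 171 and between 117 and 146 CPM. E2f8, a repressor among the E2F factors, lay between 229 and 290 CPM and Mybl2 between 92.5 and 116 CPM. Ccna2 (cyclin A2) lay between 389 and 485 CPM and Aurka, the spindle-pole Aurora kinase, between 98.5 and 129 CPM. The spindle checkpoint kinases Bub1 and Bub1b lay between 71.0 and 89.8 and between 147 and 190 CPM. The APC/C activator Cdc20 lay between 102 and 130 CPM and its ubiquitin-conjugating enzyme Ube2c between 205 and 276 CPM. The spindle motor Kif11 lay between 326 and 447 CPM, Tpx2, which activates Aurora A, between 225 and 284 CPM, and the midzone protein Prc1 between 215 and 292 CPM. Cenpe lay between 195 and 253 CPM and Birc5 between 128 and 187 CPM.

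Replication and mitosis genes were also set against each other within each library. Per library, the median deviation of the 15 replication genes minus that of the 21 mitosis genes lay between 0.07 and 0.15 (log2) in the 4 KO libraries given 5-FU. It lay between -0.10 and -0.05 in the 3 KO libraries not given it other than KO BMX-001 replicate 1, which was at -0.28. In WT marrow the values were -0.05 to 0.08 with 5-FU and -0.09 to 0.09 without, so there the groups overlapped.

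**Figure D5:**
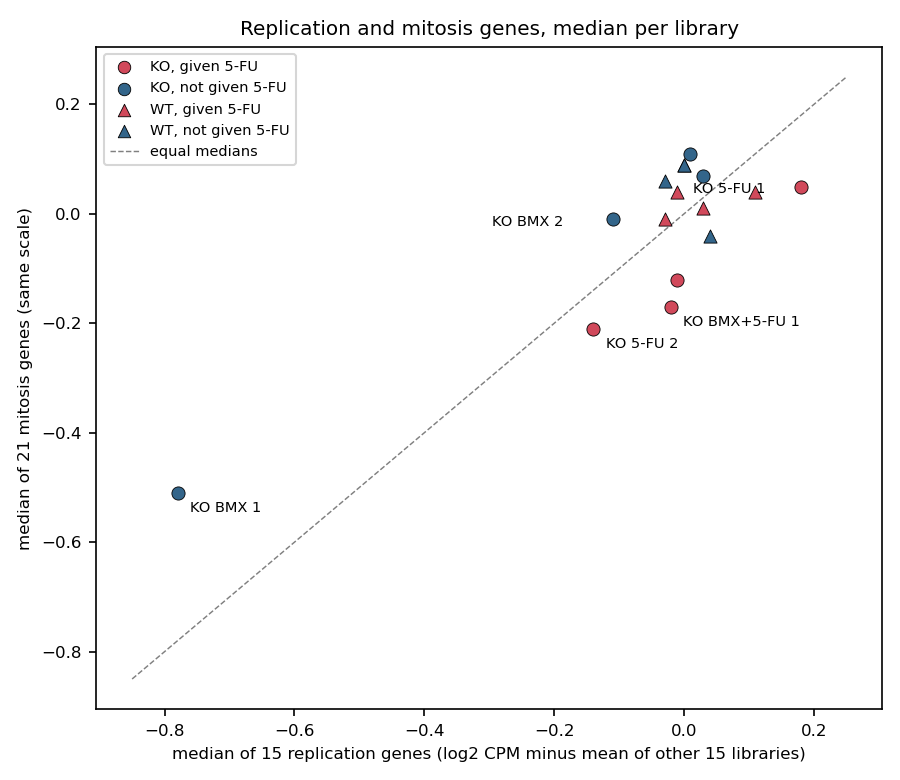
Median deviation (log2 CPM minus the gene's mean over the 15 libraries other than KO BMX-001 replicate 1) of 15 replication genes (horizontal axis) and of 21 mitosis genes (vertical axis), 1 point per library, KO as circles and WT as triangles. The 4 KO libraries given 5-FU lie below the line of equal medians, and KO BMX-001 replicate 1 lies at -0.78 for replication and -0.51 for mitosis genes.

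KO marrow was compared with WT marrow over the 4 treatments. None of the 42 was called from 16 libraries, where 0.178% of all genes were, and 41 of 42 had a log2 fold change below 0, against 49.2% of all genes, with a median of -0.13. There were 9 members at an unadjusted p under 0.05 (12.7% of all genes). Cenpe (-0.18 ± 0.06, adjusted p = 0.25), Kif11 (-0.21 ± 0.07, adjusted p = 0.261) and Cenpf (-0.18 ± 0.07, adjusted p = 0.329) had the smallest p. From 15 libraries the median was -0.06, 39 of 42 were below 0 (49.7% of all genes) and none was called, while 1.39% of all genes were, with 12 members at an unadjusted p under 0.05 (13.6% of all genes). Kif11 then had 366 ± 35.1 CPM in KO (SD, n = 7) and 409 ± 24.3 CPM in WT (n = 8), with adjusted p = 0.154. When KO BMX-001 replicate 2 was left out and the deviating library was its group's 1 sample, 34 members were called lower, with a median of -0.22, and 13.8% of all genes were called lower as well, 22.1% in either direction. The sum of 10 B cell precursor markers lay between 442 and 738 CPM in the 7 KO libraries and between 656 and 1069 CPM in WT, so the genotypes overlapped, and their part in the members' levels was not tested.

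In PBS alone, no member was called between KO and WT (0.0261% of all genes called, 0 members at an unadjusted p under 0.05 against 4.44% of all genes). The median was 0.00, with 20 of 42 below 0 (52.6% of all genes). From 15 libraries no member was called either (0.102% of all genes) and none had an unadjusted p under 0.05 (8.99%). Gins2 (-0.20 ± 0.15, adjusted p = 1), Foxm1 (-0.12 ± 0.10, adjusted p = 1) and Pole (0.17 ± 0.15, adjusted p = 1) had the smallest p. The 95% intervals of the 42 genes from 16 libraries lay between -0.71 and 0.68.

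BMX-001 alone was compared with PBS in each genotype. In KO marrow the 16-library fit gave a median of -0.33, 40 of 42 members below 0 (47.7% of all genes) and 18 at an unadjusted p under 0.05 (30.6% of all genes), but no call, with 0.00522% of all genes called. Bub1b (-0.54 ± 0.19, adjusted p = 0.105), Mki67 (-0.53 ± 0.19, adjusted p = 0.106) and Tpx2 (-0.53 ± 0.19, adjusted p = 0.111) had the smallest p. With replicate 2 alone the median was -0.09, no member was called (0.0% of all genes) or had an unadjusted p under 0.05 (9.0%), and the lowest log2 fold change was that of Mki67, with 3531 CPM in that library against 4171 ± 268 CPM in KO PBS (SD, n = 2; edgeR adjusted p = 0.604). Without replicate 2 the median was -0.64. In each of these 2 fits 40 of 42 members were below 0, against 50.9% of all genes in the fit with replicate 2 alone. The size of the differences thus rests on which of the 2 libraries is kept, while their signs were mostly the same. In WT marrow no member was called (0.0% of all genes), 1 had an unadjusted p under 0.05 from 16 libraries (5.10% of all genes) and 4 from 15 (10.4%), the median was -0.01, and Ccne2 (0.28 ± 0.13, adjusted p = 0.963), Foxm1 (-0.18 ± 0.10, adjusted p = 0.997) and Cenpe (0.18 ± 0.12, adjusted p = 0.997) had the smallest p.

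BMX-001 plus 5-FU was compared with 5-FU alone. In WT marrow no member was called (0.0% of all genes) and the median was 0.05, with 1 member at an unadjusted p under 0.05 from 16 libraries (3.93% of all genes) and 5 from 15 (8.92%). Gins2 (0.41 ± 0.15), Gins1 (0.28 ± 0.15) and Ccnb2 (0.29 ± 0.18) had the smallest p in edgeR, each with an adjusted p of 0.998. Ccnb2 had 168 ± 2.78 CPM with both drugs and 137 ± 3.53 CPM with 5-FU alone (SD, n = 2 each), so its levels did not overlap. In KO marrow no member was called either (0.0% of all genes from 16 libraries and 0.00508% from 15), and the median was -0.05. No member had an unadjusted p under 0.05 from 16 libraries (2.61% of all genes) or 15 (5.71%). Ccne2 (-0.23 ± 0.13), Gins2 (-0.17 ± 0.15) and Pole (0.13 ± 0.15) had the smallest p, each with an adjusted p of 1, and their signs in the 2 genotypes are values beside each other, since no test of that difference was made.

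Other genes of the pathway were taken from 4 lists. After 5-FU over all groups and 16 libraries, 0.559% of all genes were called higher and 2.39% lower. There 1 of 42 further replication genes rose and none fell: Orc5, of the origin recognition complex (0.31 ± 0.07, adjusted p = 0.0206). From 15 libraries, where 2.35% of all genes were called higher and 5.81% lower, 3 rose, Orc5, Orc1 and Orc4, the last 2 by 0.21 each. Of 53 further mitosis genes, 1 fell and none rose from 16 libraries, Pttg1 (securin, which guards sister chromatid cohesion), at -0.50 ± 0.07 (adjusted p = 0.00237), and 7 fell from 15 libraries. Of these 7, Pttg1 (-0.47), Cdc25b, a phosphatase that activates CDK1 (-0.23), and Kif18b, a microtubule-depolymerising motor (-0.21), had the largest or near largest changes.

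Genes of G1 entry and of cell cycle arrest were called from 16 libraries as well. Of 18 genes of G1 entry, 2 fell from 16 libraries, the E2F partner Tfdp2 (-0.67 ± 0.08, adjusted p = 0.000341) and the activator E2f2 (-0.33 ± 0.06, adjusted p = 0.00876). Tfdp2 had 376 and 436 CPM in KO BMX-001 plus 5-FU, 374 and 390 in KO 5-FU, 749 and 759 in KO BMX-001 and 694 and 689 in KO PBS, against 481 and 544 in WT BMX-001 plus 5-FU, 440 and 450 in WT 5-FU, 697 and 759 in WT BMX-001 and 489 and 700 in WT PBS. Only in WT PBS replicate 1 did a library without 5-FU fall inside the range of libraries given it. Of 21 tested brakes of the cell cycle, 4 fell and 1 rose. The stress-response gene Gadd45a fell by 0.59 (adjusted p = 0.00273), Cdkn1b, the CDK inhibitor p27, by 0.52 (adjusted p = 0.021), Btg2, an antiproliferative p53 target, by 0.39 (adjusted p = 0.0475) and Cdkn2d, the CDK4/6 inhibitor p19, by 0.35 (adjusted p = 0.00353). Ccng1, a cyclin induced by p53, rose by 0.36 (adjusted p = 0.0234). From 15 libraries the log2 fold changes were -0.53 for Gadd45a, -0.41 for Cdkn1b, -0.30 for Btg2, -0.36 for Cdkn2d and 0.30 for Ccng1. Those of Tfdp2 and E2f2 were -0.67 and -0.36.

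Cdkn1a, the CDK inhibitor p21 and a p53 target, had 24.3 and 20.8 CPM in KO BMX-001 plus 5-FU, 33 and 24.4 in KO 5-FU, 18.3 and 8.26 in KO BMX-001 and 8.96 and 11 in KO PBS, against 18.2 and 11.5 in WT BMX-001 plus 5-FU, 14.8 and 15.8 in WT 5-FU, 7.62 and 8.83 in WT BMX-001 and 8.61 and 20.4 in WT PBS. In KO marrow all 4 libraries given 5-FU lay above the others, and in WT marrow the groups overlapped. Over all groups its log2 fold change was 0.81 ± 0.20 from 16 libraries (adjusted p = 0.0602) and 0.98 ± 0.21 from 15 (adjusted p = 0.0322). Within KO, where 1.74% of all genes were called lower, 6 of these pathway genes fell from 16 libraries, with Tfdp2 at -0.87 ± 0.11 (adjusted p = 0.00101), Cdkn1b at -0.73 ± 0.15 (adjusted p = 0.0278) and Gadd45a at -0.71 ± 0.13 (adjusted p = 0.0103) the furthest. From 15 libraries the values were -0.88 for Tfdp2, -0.50 for Cdkn1b and -0.59 for Gadd45a. Cdkn1b had 241 CPM in KO BMX-001 replicate 1 and 140 CPM in replicate 2. Within WT no gene of the 4 lists was called from 16 libraries, and their interaction terms were not called either. From 15 libraries Tfdp2 (-0.46), Pttg1 (-0.41) and Cdkn2d (-0.32) fell within WT and Ccng1 (0.30) rose. Within KO the 15-library values of these genes had the same signs (-0.88, -0.54, -0.40 and 0.29). In the KO 5-FU against KO PBS comparison Tfdp2 was the 1 gene called from 16 libraries (-0.86 ± 0.15, adjusted p = 0.028). In the other comparisons of drugs or genotypes no gene of the 4 lists was called from 16 libraries. From 15 libraries Tfdp2 (-0.86), Gadd45a (-0.71), Pttg1 (-0.58), E2f2 (-0.56), Cdkn2d (-0.40) and Kif18b (-0.32) were called lower in KO 5-FU against KO PBS. For KO against WT over the 4 treatments, Cdk6 (0.20) was called higher from 15 libraries and E2f6 (-0.22) lower. In WT 5-FU against WT PBS from 15 libraries, Cdkn2d (-0.53), Cks1b (-0.39), E2f2 (-0.33) and Pold1 (-0.33) fell. Knl1 (0.41) and Ncapg (0.37) rose there.

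Markers of marrow cells were also set beside 5-FU, and of their summed levels only that of monocytes did not overlap. The summed level of 10 erythroid markers lay between 42230 and 59145 CPM in libraries given 5-FU. It lay between 52656 and 77835 CPM in the 7 others without KO BMX-001 replicate 1, so these ranges overlapped. That of 6 monocyte markers lay between 992 and 1216 CPM given 5-FU and between 1231 and 1776 CPM not given it, and that of 8 granulocyte precursor markers overlapped (2393 to 3434 and 2230 to 3533 CPM). The part of these marker levels in the values of the members, of Tfdp2 and of E2f2 was not tested.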

How the data were processed

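RNA-seq of whole bone marrow was deposited as raw counts per gene by the authors. Per the submitters' processing notes, the tools named, with no role given, are featureCounts, DESeq2 1.38.3, R 4.3.0, Salmon 1.4.0, FastQC 0.12.1 and Trim Galore 0.6.4. Counts were taken as deposited, and IDs without a symbol held 2.69% of counts. Genes past edgeR's filter on low counts were fitted over all 8 groups with TMM factors and the quasi-likelihood test (edgeR 4.0.16, R 4.3.3), after a test on simulated data, with Benjamini-Hochberg adjustment over all genes. Alternatives were DESeq2 1.42.0, limma 3.58.1 (voom with quality weights), RLE factors, library totals only, no filter, a fit of only the groups compared, a replicate block and leaving out each library.

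All 42 members were named: called members, or otherwise the 3 of smallest p, have full statistics, and 12 members chosen by role have values in every library, as do called ones. Of the other pathway lists, up to 3 called genes of largest change are named in a comparison, with Cdkn1a always, and some beyond that were added after their values were seen. The members and lists were chosen with earlier results of these data known. Replicate numbers did not pair the libraries: deviations of same-numbered libraries correlated between -0.391 and 0.196 over 28 pairs of groups. Levels per kilobase used GENCODE M21 exons.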

Additional observations from a re-analysis of the deposited data

Results flagged for a closer look

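In 8 cases, the 2 treated KO libraries lay on one side of both KO PBS libraries, and the 2 treated WT libraries on the other side of both WT PBS libraries. Members that moved apart only from the PBS means, such as Cenpf with 5-FU, are not counted here. None of these 8 differences was tested. The share of all genes with this pattern is not given, so the 8 cannot be read as a trait of the members. For 5-FU against PBS there were 3 such genes. The log2 fold change of Mki67 was -0.36 in KO and 0.15 in WT, a difference of -0.51. That of Cenpe was -0.24 in KO and 0.18 in WT, a difference of -0.43, and that of E2f8 was -0.14 in KO and 0.09 in WT, a difference of -0.23. E2f8 barely moved in KO 5-FU replicate 1, at 274 CPM against a KO PBS mean of 277 CPM. For BMX-001 against PBS there were 5, and the KO values include KO BMX-001 replicate 1. The difference between KO and WT was -0.71 for Mki67, -0.58 for Pola1, -0.52 for Cenpf, -0.50 for Ccna2 and -0.42 for Cenpe.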

How the results depend on the processing

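With 16 libraries edgeR called 0 of the 42 genes in each of the 12 comparisons, and so did the fit with the replicate block, under which the calls over all genes after 5-FU over all groups numbered 472, against 565 without it. DESeq2 called 1 gene after 5-FU over all groups (Kif23, with 7.97% of all genes called) and 1 for BMX-001 against PBS in KO (Mki67, with 10.9%), and voom 1 for 5-FU against PBS in WT (Ccne2, with 3.77%). For DESeq2 such shares are of the genes it gave an adjusted p. Without the filter on low counts, 1 gene was called after 5-FU over all groups (5.04% of all genes), 2 within KO (5.24%) and 16 for BMX-001 against PBS in KO (10.7%). With library totals alone, 7 were called after 5-FU over all groups (11.9% of all genes) and 3 within KO (8.88%). The members' medians then were -0.07 for KO against WT in PBS, 0.10 for pooled 5-FU in WT, 0.07 for 5-FU against PBS in WT and 0.11 in KO. They were 0.157 for 5-FU over all groups, 0.174 within KO, -0.165 for BMX-001 against PBS in KO and -0.019 for BMX-001 plus 5-FU against 5-FU in KO, against 0.04, 0.06, -0.33 and -0.05 with TMM. In these 4 comparisons the medians of all genes were 0.126, 0.125, 0.206 and 0.025 with library totals.

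Leaving out 1 library at a time gave 0 to 34 called genes for KO against WT, 0 to 19 after 5-FU over all groups, 0 to 25 within KO, 0 to 17 for the difference between genotypes, 0 to 3 for 5-FU against PBS in WT and 0 to 35 for BMX-001 against PBS in KO. The counts of 34, 19, 25, 17 and 35 came without KO BMX-001 replicate 2, in fits that called 22.1%, 22.7%, 29.7%, 18.0% and 44.6% of all genes, with the deviating library then alone in its group and assumed to vary like the others. The medians ranged from -0.01 to 0.03 for KO against WT in PBS and from -0.05 to 0.25 for the difference between genotypes. For 5-FU against PBS they ranged from -0.25 to 0.07 in KO and from -0.06 to -0.02 in WT, and for BMX-001 against PBS from -0.64 to -0.09 in KO and from -0.04 to 0.01 in WT. For BMX-001 plus 5-FU against 5-FU they ranged from -0.19 to 0.10 in KO and from 0.03 to 0.11 in WT. Gins2 in that KO comparison ranged from -0.36 to 0.01. The causes were not tested.

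The fits of 15 libraries were chosen after seeing the data. There DESeq2 called 2 genes for KO against WT (4.03% of all genes), 8 after 5-FU over all groups (12.9%) and 6 within KO (7.4%), and library totals alone gave 16 over all groups (25.9%) and 7 within KO (13.1%). Leaving out a further library gave 0 to 1, 2 to 9 and 0 to 4 called genes in these comparisons and 0 to 5 for 5-FU against PBS in WT. With 2 libraries a group, a missing call does not show that groups were alike.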
